A study of Mus musculus with 10 samples.

Results

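Loss of *Dnttip1* was examined in 2 knock out (KO) clones of mouse embryonic stem cells (mESCs), D2A7 and D1E6, each compared with the parental WT cells. The 4 *Dnttip1* KO libraries and the 2 WT libraries were taken by the genotype and clone in their labels and make up 6 of the 10 libraries of the series, the others being from *Elmsan1* KO clones. Of the 34591 genes in the table, 17435 had at least 0.1 FPKM (fragments scaled to exon length and library size) in at least 2 of the 6 libraries and were tested. The study asked which genes depend on the mitotic deacetylase complex (MiDAC) and measured stranded total RNA by paired-end sequencing. All lines were male C57/BL6 Bruce-4 mESCs kept without feeders on gelatin in a chemically defined medium. For the KO and the WT cells alike it held leukemia inhibitory factor (LIF), a GSK3 inhibitor and a MEK inhibitor. The MEK inhibitor is meant to hold ERK signalling down, and ERK activity was not measured in these data. The KO cells carried CRISPR/Cas9 indels in *Dnttip1*, and each KO line was grown from a single sorted cell, whereas the WT line is not described as cloned. The clones are called by their codes here because the labels and the accompanying text number them in opposite order.

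MiDAC is a class I histone deacetylase complex in which HDAC1 or HDAC2, the enzymes that remove acetyl groups from histone tails, are held by the scaffold proteins ELMSAN1 and DNTTIP1. DNTTIP1 forms dimers and binds chromatin, so the complex carries several deacetylase sites. Deacetylases are usually linked with gene repression, although several of their complexes are also needed for the full expression of some genes. mESCs in this medium are in the naive state of pluripotency, in which lineage genes are low or silent and much of the DNA methylation is lost.

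The guide is shown because its position gives the place of the edit in the gene. The protospacer, with the PAM in capitals, lies on the plus strand.
Dnttip1 guide RNA: acaucggcaggugcagcgaa
Protospacer and PAM: acatcggcaggtgcagcgaaGGG
It matched chromosome 2 of NCBIM37 at 1 place, chr2:164572230-164572249, with the predicted cut between bases 164572246 and 164572247. The cut falls in exon 2 of 13, a coding exon of 71 bases (164572207 to 164572277), of *Dnttip1* (ENSMUSG00000017299, chr2:164571483-164594107). Reads from the other exons therefore still count towards the gene after editing.

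*Dnttip1* RNA was lower in both clones and was not absent from either. It stood at 8.15 and 8.43 FPKM in WT, at 4.57 and 4.56 FPKM in D2A7 and at 2.59 and 2.63 FPKM in D1E6. All 4 KO libraries lay below both WT libraries and the clones did not overlap each other. The clone means were 55.1% and 31.5% of the WT mean. On the scale of log2(FPKM + 0.1), used for all log2 fold changes and smaller than the true change for genes near or below 0.1 FPKM, *Dnttip1* fell by 0.87 ± 0.0442 (standard error, SE) in D2A7 (adjusted p = 0.000167, limma) and by 1.66 ± 0.0442 in D1E6 (adjusted p = 8.05e-05). The clones differed from each other by 0.79 (adjusted p = 0.000226). The exact two-sided permutation test of 4 KO against 2 WT libraries gave p = 0.0667 over 15 regroupings, the smallest that this design allows. It counts the 4 KO libraries as independent, although they are duplicates of 2 clones, and so cannot measure an effect over clones.

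The libraries held between 30182379 and 60916319 fragments in genes, recovered from the FPKM values, and the WT libraries were the 2 shallowest. Summed FPKM of 9 mESC markers were 3041 to 3223 in WT, 3540 to 3793 in D2A7 and 3141 to 3261 in D1E6, and *Dppa5a* alone made up 1497 and 1658 in WT, 2296 and 2052 in D2A7 and 1881 and 1766 in D1E6. Summed levels of 8 fibroblast markers, a check for feeder cells, were 0.201 to 0.263 FPKM in WT, 0.907 to 0.928 in D2A7 and 0.264 to 0.335 in D1E6, with 5 of the 8 under 0.1 FPKM in all 6 libraries. The 2 libraries of a line are duplicates of 1 culture line, so p-values measure the spread between such libraries. Both clones are compared with the same WT line, and a property of that line cannot be told apart from an effect of the KO.

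By the study's own rule, calls required a change of 1.5-fold or more with p below 0.01 before adjustment. Against WT, D2A7 had 890 genes lower (5.10% of those tested) and 1743 higher (10.0%), whereas D1E6 had 946 lower (5.43%) and 784 higher (4.50%). Called in both clones in the same direction were 424 genes lower (2.43%) and 401 higher (2.30%), together 825 (4.73%) and hereafter the shared genes. All of them had an adjusted p under 0.05 in both clones, as did every gene called in a clone (limma, up to 0.0268 in D2A7 and 0.0333 in D1E6). For all shared genes the 4 KO libraries lay beyond both WT libraries in that direction. The shared genes were selected on these same libraries, so neither property is a separate test of them. Compared directly, D2A7 had 627 genes lower (3.60%) and 1505 higher (8.63%) than D1E6. Genes of 1 clone only were called in that clone, not called in the other and called in the direct comparison of the clones. D2A7 had 195 such genes lower (1.12%) and 765 higher (4.39%), and D1E6 had 243 lower (1.39%) and 167 higher (0.958%). Called in 1 clone without a called difference between the clones, and so undecided, were 263 lower and 524 higher genes of D2A7 and 226 lower and 208 higher genes of D1E6, and 61 genes (0.350%) were called in opposite directions. With the 4 KO libraries taken as 1 group, 566 genes were lower (3.25%) and 567 higher (3.25%), 6.50% in all. This counts the libraries of a clone as independent, and with a correlation within clones the counts were 256 and 281. Of the tested genes, 80.1% were not called in either clone. Of the shared lower genes 40 passed the filter through the WT libraries alone, and of the shared higher genes 45 through KO libraries alone. Of the 765 genes higher in D2A7 only, 88 passed through the libraries of that clone alone. For all these the filter itself required a difference, so their calls are a description. The pooled counts were 254 and 348 without WT replicate 1, and 266 were lower without WT replicate 2.

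**Figure D1:**
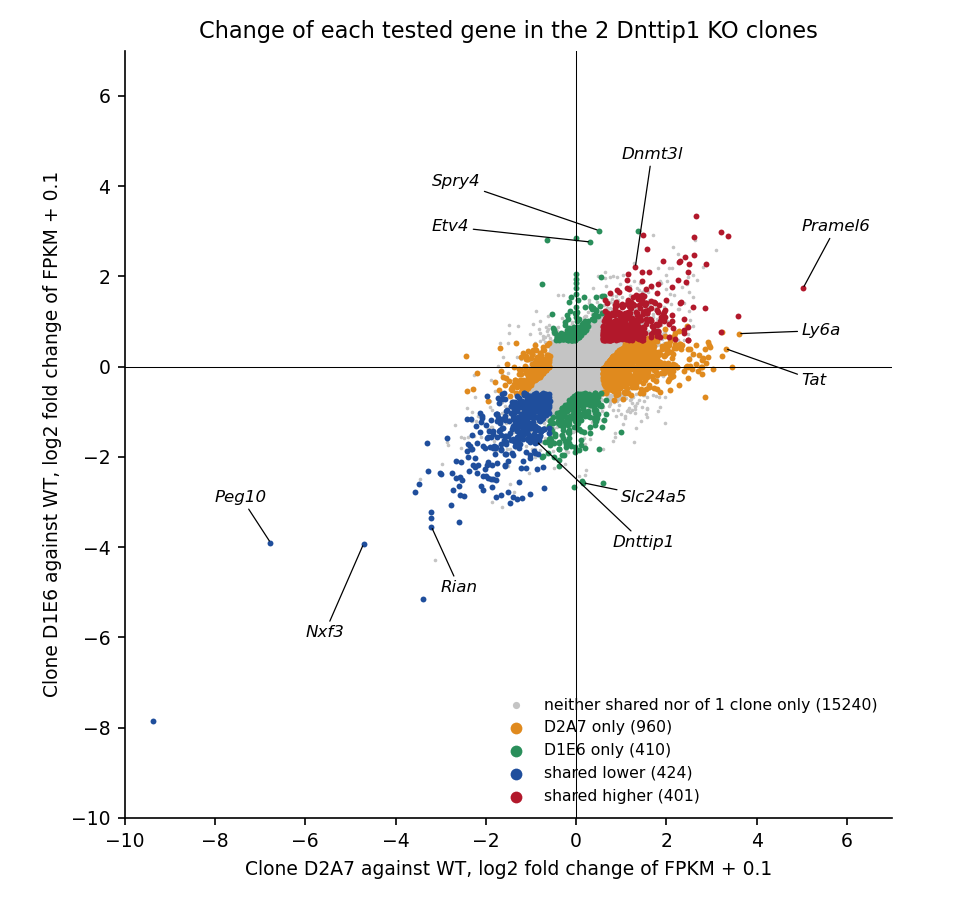
Log2 fold change of each tested gene against WT in clone D2A7 (x axis) and in clone D1E6 (y axis), coloured by whether the gene was called in both clones or in 1 clone only. The 424 shared lower and 401 shared higher genes lie in opposite corners, and the 765 genes higher in D2A7 only lie along the x axis. Both axes use the same WT libraries, so the spread along the diagonal is in part common to both.

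The shared genes were of low to moderate level. The median WT level was 1.70 FPKM for shared lower genes and 1.09 FPKM for shared higher genes, against 4.20 FPKM over all tested genes, and 216 of the 424 lower and 273 of the 401 higher genes had a mean of at least 1 FPKM over the 6 libraries. The genes higher in D2A7 only had a lower median in WT, at 0.666 FPKM. Shared lower genes had a median log2 fold change of -1.14 in D2A7 and -1.17 in D1E6, and shared higher genes of 1.09 and 0.86. The median over all tested genes was 0.03 in D2A7 and -0.00 in D1E6. Among the shared genes, 69 lower and 75 higher genes also differed in size between the clones.

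Several of the genes with the largest shared loss were near silence in both clones. *Peg10*, an imprinted gene derived from a retrotransposon and needed for placental development, stood at 11.8 and 12.4 FPKM in WT, 0.00966 and 0.0169 FPKM in D2A7, and 0.768 and 0.703 FPKM in D1E6. Its log2 fold change was -6.77 ± 0.102 (SE) in D2A7 (adjusted p = 5.09e-05) and -3.90 in D1E6 (adjusted p = 8.05e-05), a difference of -2.87 between the clones. The neighbouring imprinted gene *Sgce*, which encodes a sarcoglycan, was at 1.48 and 1.61 FPKM in WT and below 0.25 FPKM in all 4 KO libraries (log2 fold change -3.29 and -2.32). *Nxf3*, an X-linked member of the nuclear RNA export factor family, fell from 7.63 and 8.32 FPKM in WT to 0.216 and 0.210 in D2A7 and 0.428 and 0.453 in D1E6 (log2 fold change -4.71 and -3.93). No KO library overlapped WT for these 3 genes, and for each of them D2A7 was the lower clone.

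*C330008G21Rik* had the opposite order of the clones, at 17.1 and 17.4 FPKM in WT, 1.51 and 1.64 in D2A7 and 0.296 and 0.535 in D1E6 (log2 fold change -3.40 and -5.14). *Dner*, a transmembrane ligand of Notch found in neurons, stood at 5.69 and 5.48 FPKM in WT, 0.971 and 0.751 in D2A7 and 0.400 and 0.477 in D1E6 (log2 fold change -2.60 and -3.43). Both genes were lowest in D1E6. *Gdpd3*, a lysophospholipase D, fell to between 0.525 and 0.758 FPKM in the KO libraries from 4.89 and 5.74 FPKM in WT (log2 fold change -2.77 and -3.06). *Tex13*, an X-linked testis gene, fell by 3.01 and 2.36, and *BC064078* fell by 2.56 and 2.44 on the log2 scale. *Hist3h2ba*, a histone H2B gene, went from 49.5 and 50.5 FPKM in WT to 10.3 and 11.1 in D2A7 and 11.2 and 10.5 in D1E6 (log2 fold change -2.24 and -2.23), so that the clones overlapped each other and not WT. The remaining 2 of the 10 leading lower genes, *AY036118* and *Gm10801*, hold repeated sequence. *AY036118*, which overlaps ribosomal RNA, stood at 35676 and 2400 FPKM in the WT libraries and at 12.5 to 120 FPKM in the KO libraries, and its D1E6 call was lost without D1E6 replicate 1 (-6.31).

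**Figure D2:**
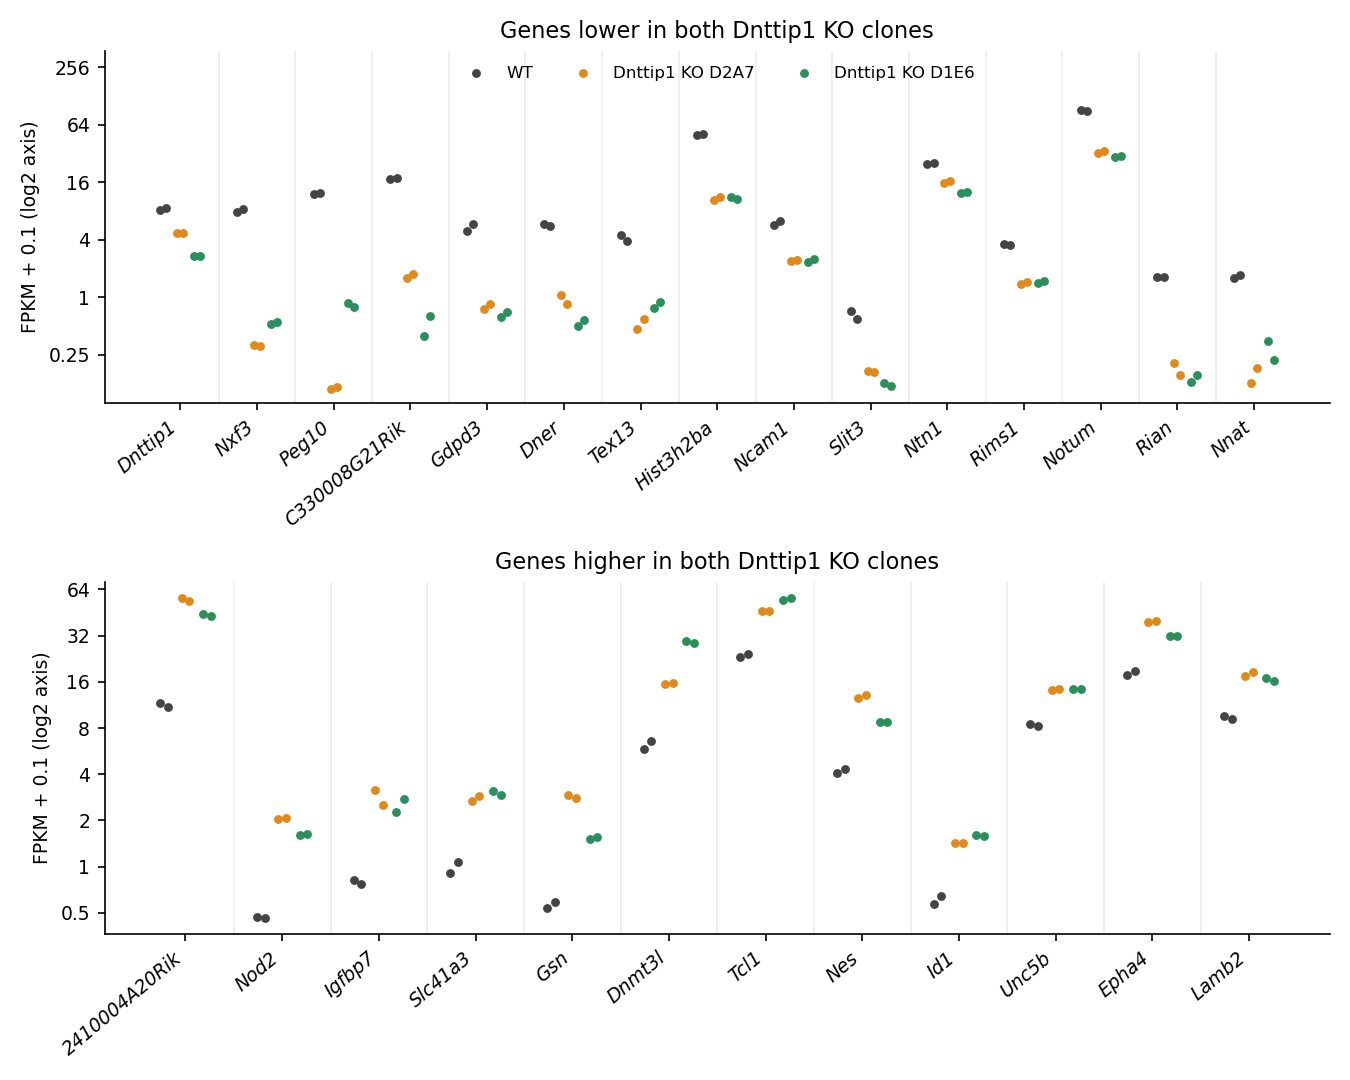
FPKM + 0.1 per library (log2 axis) of genes lower (upper panel) or higher (lower panel) in both clones, each point 1 library, coloured by WT, D2A7 and D1E6. For the lower genes both WT points lie above all 4 KO points, as for *Nxf3* at 7.63 and 8.32 FPKM against 0.210 to 0.453, and for the higher genes both lie below.

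The shared higher genes led with *2410004A20Rik*, at 11.6 and 10.9 FPKM in WT, 56.6 and 54.1 in D2A7 and 44.2 and 43.0 in D1E6 (log2 fold change 2.27 and 1.91). *Nod2*, a cytoplasmic sensor of bacterial peptidoglycan, rose from 0.372 and 0.363 FPKM to 1.96 and 1.99 in D2A7 and 1.5 and 1.53 in D1E6 (log2 fold change 2.13 and 1.76). *Gsn*, which encodes the actin-severing protein gelsolin, rose from 0.441 and 0.488 FPKM to 2.85 and 2.69 in D2A7 and 1.42 and 1.46 in D1E6 (log2 fold change 2.33 and 1.42). In each of these 3 genes D2A7 was the higher clone. *Dnmt3l*, the cofactor of the de novo DNA methyltransferases, had the reverse order: 5.74 and 6.44 FPKM in WT, 15.5 and 15.5 in D2A7 and 29.4 and 28.7 in D1E6 (log2 fold change 1.31 and 2.21, with a difference of -0.89 between the clones). *Igfbp7*, a secreted protein that binds insulin-like growth factors, was 1.80 and 1.62 higher, *Slc41a3*, a magnesium transporter, 1.47 and 1.59 higher, and *Inf2*, an actin-nucleating formin, 1.46 and 1.91 higher on the log2 scale.

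*Pramel6*, a gene of the preimplantation embryo and naive mESCs, showed how far the clones could part within a shared call. It stood at 0.201 and 0.468 FPKM in WT, 14.1 and 13.1 FPKM in D2A7 and 1.13 and 1.49 FPKM in D1E6. Its log2 fold change was 5.03 in D2A7 and 1.74 in D1E6, a difference of 3.29, and the D1E6 call was lost without D1E6 replicate 2 (1.56). Another 3 leading higher genes carry no functional name: *Gm13029* (1.51 and 1.57), *Gm13623* (1.46 and 2.10) and *AL626775.1* (2.67 and 3.34). *AL626775.1* rested on 0 and 1 fragments in WT and was no longer shared without any 1 of the KO libraries, nor was *Gm13029* without either D1E6 library or D2A7 replicate 2.

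Promoters are shown for 4 genes that stand for the ways a gene could move, chosen after their values were seen: *Peg10* and *Nxf3* (shared lower), *Dnmt3l* (shared higher) and *Ly6a* (higher in D2A7 only). Each line gives the 80 bases just upstream of the annotated start, 5′ to 3′ on the gene's strand, from NCBIM37 with the GENCODE vM1 start, and capitals mark CG dinucleotides.
Peg10 (chr6:4697226-4697305, plus strand): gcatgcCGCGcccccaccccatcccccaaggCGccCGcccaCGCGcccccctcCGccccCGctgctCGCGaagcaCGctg
Nxf3 (chrX:132619795-132619874, minus strand): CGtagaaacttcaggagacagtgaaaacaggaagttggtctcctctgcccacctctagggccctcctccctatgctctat
Dnmt3l (chr10:77504612-77504691, plus strand): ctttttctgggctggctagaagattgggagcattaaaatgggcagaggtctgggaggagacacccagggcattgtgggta
Ly6a (chr15:74828065-74828144, minus strand): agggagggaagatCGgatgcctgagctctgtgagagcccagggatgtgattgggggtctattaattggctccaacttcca
These windows held 11, 1, 0 and 1 CG dinucleotides, and the windows from 250 bases before to 50 bases after the start held 18, 7, 3 and 1. Over protein-coding genes the median number in such a window was 18 for all tested genes, 14 for shared lower and 13 for shared higher genes, 9.5 for genes higher in D2A7 only and 17 for genes higher in D1E6 only. The ETS motif CCGGAAGT, searched on both strands, lay in 7.12% of all these windows, 1.65% of those of shared lower genes and 1.85% of those of shared higher genes. It lay in 1.64% and 1.23% for genes lower and higher in D2A7 only, and in 2.34% and 5.48% for those of D1E6 only. The cAMP response element TGACGTCA lay in 3.00%, 2.75% and 1.54% of the windows of all, shared lower and shared higher genes. In the same order the E-box CACGTG lay in 9.78%, 8.54% and 7.69%. The E2F motif GCGGGAAA lay in 1.91%, 1.38% and 3.08%, and the RBFOX motif TGCATG in 7.37%, 8.82% and 8.0%.

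The other subunits of MiDAC did not fall with *Dnttip1* by the rule. *Elmsan1*, listed as *C130039O16Rik*, was at 5.53 and 5.39 FPKM in WT, 7.79 and 8.68 in D2A7 and 8.65 and 8.55 in D1E6. It was called higher in D1E6 (log2 fold change 0.61) and missed the fold threshold in D2A7 (0.56), and the D1E6 call was lost without WT replicate 2 (0.57). *Hdac1* had log2 fold changes of 0.26 and 0.24 and *Hdac2* of -0.03 and -0.36, none of them called. *Trerf1*, a paralogue of *Elmsan1*, was at 0.446 and 0.563 FPKM in WT, 0.804 and 0.976 in D2A7 and 1.57 and 1.5 in D1E6. Its log2 fold change was 0.69 in D2A7, where the call was lost without D2A7 replicate 2 (0.57) or WT replicate 1 (0.58), and 1.41 in D1E6. Of 40 genes listed as subunits of the other class I HDAC complexes, 37 were not called in either clone, against 80.1% of all tested genes. In this list *Hdac8* was shared lower (-0.71 and -0.67), 1 gene was lower in D2A7 only and 1 was undecided. *Hdac8* was no longer shared without either D1E6 library, D2A7 replicate 2 or WT replicate 1.

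Genes that guide axons moved in both directions. These comprise secreted or membrane ligands such as SLITs, netrins, semaphorins and ephrins, their receptors on the growth cone, and the cytoplasmic proteins that pass the signal to actin. Of 39 ligand genes 31 were tested, and 2 were shared lower and 5 shared higher (median log2 fold change -0.05 in D2A7 and 0.05 in D1E6). Over all tested genes 2.43% were shared lower and 2.30% shared higher. Both lower ligands, *Slit3* and *Ntn1*, encode chemotropic cues. *Slit3* was at 0.620 and 0.496 FPKM in WT, 0.0690 and 0.0651 in D2A7 and 0.0273 and 0.0185 in D1E6, or 114 and 117 fragments in the WT libraries and 7 to 26 in the KO libraries. Its log2 fold change was -1.99 in D2A7 and -2.43 in D1E6. *Slit3* passed the filter through the WT libraries alone, so these values are a description, and it was not tested without either WT library. *Ntn1* fell from 24.7 and 25.4 FPKM in WT to 15.6 and 16.3 in D2A7 and 12.3 and 12.4 in D1E6 (log2 fold change -0.67 and -1.05). The 5 shared higher ligands were semaphorins, *Sema3b* (1.25 and 0.71), *Sema4a* (0.84 and 1.01), *Sema6a* (1.66 and 0.66), *Sema6b* (0.87 and 0.93) and *Sema6c* (1.07 and 0.69). *Sema6a* was no longer shared without any library other than WT replicate 2, nor *Sema4a* without D1E6 replicate 1, WT replicate 1 or either D2A7 library.

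Of 35 genes of axon guidance receptors 20 were tested, with 1 shared lower and 2 shared higher, against 2.43% and 2.30% of all tested genes. *Nrp2*, a receptor of class 3 semaphorins, fell from 5.21 and 5.33 FPKM in WT to 1.03 and 0.939 in D2A7 and 2.22 and 2.48 in D1E6 (log2 fold change -2.33 and -1.17). *Unc5b*, a netrin receptor, rose from 8.43 and 8.14 FPKM to between 14.1 and 14.3 FPKM in the 4 KO libraries (0.74 in each clone), and *Epha4*, an ephrin receptor, rose from 17.6 and 18.8 FPKM to 38.9 and 39.7 in D2A7 and 32.0 and 31.7 in D1E6 (1.08 and 0.77). *Epha1*, an ephrin receptor on chromosome 6, was higher in D1E6 only, at 3.13 and 3.02 FPKM against 0.658 and 0.717 in WT and 1.06 and 1.07 in D2A7 (log2 fold change 1.98 and 0.55 in D1E6 and D2A7), and it was called in both clones with the median of each chromosome set to 0 (0.63 in D2A7 and 1.56 in D1E6). Of the 38 tested cytoplasmic effectors 31 were not called in either clone, close to the 80.1% of all tested genes, and the single shared gene was *Enah*, an actin regulator (log2 fold change -0.61 in D2A7 and -0.96 in D1E6), whose D2A7 call was lost without WT replicate 1 (-0.58). The SLIT receptor gene *Robo3* did not pass the filter on low values.

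Neural cell adhesion and synaptic genes had shared calls in both directions. Over all tested genes 2.43% were shared lower and 2.30% shared higher. Of 35 adhesion genes 15 were tested, and 4 fell in both clones and 1 rose (median 0.03 in D2A7 and 0.15 in D1E6). *Ncam1*, the neural cell adhesion molecule, fell from 5.66 and 6.13 FPKM in WT to 2.29 and 2.34 in D2A7 and 2.25 and 2.42 in D1E6 (log2 fold change -1.34 ± 0.0608 SE, adjusted p = 0.000134, and -1.33, adjusted p = 0.000239). The clones overlapped each other for *Ncam1* and lay below WT. *Alcam*, an immunoglobulin-type adhesion molecule of growing axons, was lower in D1E6 (0.0989 and 0.142 FPKM) than in D2A7 (0.447 and 0.430), with 1.07 and 1.27 FPKM in WT. *Nrcam* had the reverse order, at 1.35 and 1.37 FPKM in WT, 0.341 and 0.320 in D2A7 and 0.682 and 0.565 in D1E6. The calls of *Nfasc* (-0.95 and -0.94) and *Cntn2* (0.70 and 1.19) as shared were lost without any 1 of the 6 libraries.

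Among 53 synaptic genes 30 were tested, and 4 were shared lower and 2 shared higher (median -0.07 in D2A7 and -0.12 in D1E6). Of these, 2 lower and 1 higher kept the class without each of the 6 libraries in turn. *Rims1*, a scaffold of the presynaptic active zone, fell from 3.53 and 3.47 FPKM in WT to between 1.30 and 1.38 FPKM in the 4 KO libraries (log2 fold change -1.36 in each clone). *Gad1* and *Gad2*, which encode the enzymes that make the transmitter GABA, fell by 0.96 and 1.67 in D2A7 and by 1.10 and 1.71 in D1E6, and *Gria4*, a glutamate receptor subunit, fell by 1.65 and 1.82. *Gad2* and *Gria4* passed the filter through the WT libraries alone, and neither was tested without a WT library. *Grin1*, the obligatory NMDA receptor subunit, rose from 0.925 and 0.952 FPKM to 4.50 and 4.56 in D2A7 and 2.23 and 2.24 in D1E6 (2.14 and 1.14). *Pacsin1*, a regulator of synaptic vesicle endocytosis, was at 0.132 and 0.151 FPKM in WT, 0.399 and 0.277 in D2A7 and 0.335 and 0.302 in D1E6 (0.83 and 0.77), and was no longer shared without any 1 of the 6 libraries.

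Of 23 genes that mark neural progenitors and neurons 13 were tested, and 4 were not called in either clone (median -0.05 in D2A7 and -0.40 in D1E6). In both clones 3 were lower and 1 higher, in D1E6 only 2 were lower, and in D2A7 only 1 was lower and 1 higher. Over all tested genes these shares were 2.43%, 2.30%, 1.39%, 1.12% and 4.39%. *Nefl* and *Nefm*, the neurofilament genes lower in D1E6 only and named after their values were seen, had log2 fold changes of -1.30 and -1.95 there. *Elavl3* (-0.70 and -0.67) and *Elavl4* (-0.80 and -0.62), neuronal RNA-binding proteins, were shared lower and lost that class without any 1 of the 6 libraries. *Nes*, an intermediate filament of neural progenitors, rose from 3.99 and 4.23 FPKM to 12.4 and 13 in D2A7 and 8.61 and 8.67 in D1E6 (1.58 and 1.02). *Tubb3*, a neuronal tubulin on chromosome 8, was at 57.9 and 53.9 FPKM in WT, 70.6 and 72.7 in D2A7 and 86.1 and 86.3 in D1E6, and was called in D1E6 (0.59) and not in D2A7 (0.33), the D1E6 call being lost without WT replicate 2 (0.51) and with chromosome medians set to 0 (0.23). *Stmn2*, a microtubule regulator of growing neurons, was at 91.1 and 86.8 FPKM in WT against 52.2 to 62.4 FPKM in the KO libraries (-0.75 and -0.61), with the D1E6 call lost without D1E6 replicate 1 or WT replicate 1 (-0.55 in both). *Pax6*, the factor of neural progenitors, was at most 0.0253 FPKM in all 6 libraries and was not tested.

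The FGF list had 27 genes, of which 17 were tested, with 4 shared lower (2.43% of all tested genes were) and 1 shared higher. *Fgf15*, a secreted FGF of early embryos, fell from 0.675 and 0.598 FPKM to between 0.169 and 0.195 FPKM in the 4 KO libraries (log2 fold change -1.42 and -1.39), and the receptor gene *Fgfr2* fell from 1.01 and 0.957 FPKM to between 0.323 and 0.396 FPKM (-1.36 and -1.25). *Fgf10*, a ligand of that receptor, rose by 0.89 and 1.43. The other shared lower members, *Fgf17* (-1.43 and -0.79) and *Fgf2* (-1.14 and -1.23), lost the shared call without either D1E6 library or either WT library, *Fgf2* also without either D2A7 library, and *Fgf2* passed the filter through the WT libraries alone.

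Of 22 WNT targets and TCF factors 20 were tested (median -0.18 in D2A7 and -0.20 in D1E6). Shared lower were 3 and shared higher none, against 2.43% and 2.30% of all tested genes. *Notum*, a secreted enzyme that inactivates WNT ligands and is itself a WNT target, fell from 90.3 and 88.7 FPKM in WT to 32.5 and 34.2 in D2A7 and 29.1 and 29.8 in D1E6 (-1.45, adjusted p = 6.79e-05, and -1.63, adjusted p = 8.05e-05). *Wnt7b*, a WNT ligand gene, fell from 0.641 and 0.586 FPKM to 0.157 and 0.196 in D2A7 and 0.108 and 0.0691 in D1E6 (-1.39 and -1.95). *T*, the mesoderm factor brachyury, was 1.10 lower in D2A7 and 1.24 lower in D1E6, with the D2A7 call lost without D2A7 replicate 1 (-0.97) or WT replicate 1 (-0.95).

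Of the BMP pathway and ID genes, 22 of 28 were tested and 2 were shared higher (2.30% of all tested genes were). *Id1*, which encodes an inhibitor of basic helix-loop-helix factors and is induced by BMP, rose from 0.471 and 0.546 FPKM in WT to 1.32 and 1.33 in D2A7 and 1.52 and 1.48 in D1E6 (1.21 and 1.37). The inhibitory SMAD gene *Smad6* (1.03 and 0.61) lost its D1E6 call without either D1E6 library, D2A7 replicate 2 or WT replicate 2. In the Hedgehog list, with 11 of 14 genes tested, *Hhip*, the decoy receptor of Hedgehog ligands, fell from 1.08 and 1.14 FPKM to between 0.322 and 0.367 FPKM (-1.47 in each clone). Among 14 LIF response genes 2 were shared lower, 1 shared higher (*Junb*) and 1 higher in D1E6 only (*Myc*). Over all tested genes these shares were 2.43%, 2.30% and 0.958%. The list medians were -0.07 in D2A7 and -0.20 in D1E6. *Junb* and *Myc* lost these classes without 1 or more of the libraries. *Socs3*, the feedback inhibitor of LIF signalling, fell from 38.9 and 36.8 FPKM to 19.6 and 20.6 in D2A7 and 22.5 and 21.6 in D1E6 (-0.94 and -0.81). *Pim2*, a kinase gene induced by STAT3, fell by 0.78 and 0.63, with the D1E6 call lost without D1E6 replicate 2 or WT replicate 1. Of the 17 tested genes of the Notch list, which does not hold *Dner*, none was shared, 1 was called in D2A7 only and 5 were undecided. Among 25 tested glypican, syndecan and heparan sulfate genes 2 were shared lower and none shared higher, against 2.43% and 2.30% of all tested genes. In D2A7 only 3 were lower (1.12% of all), in D1E6 only 1 was lower (1.39%), and 1 was called in opposite directions. *Gpc1*, a membrane proteoglycan, fell from 9.48 and 8.87 FPKM to 3.42 and 3.54 in D2A7 and 4.25 and 4.04 in D1E6 (-1.40 and -1.16). *Hs6st2*, the other shared gene, lost that class without any 1 of the 6 libraries.

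ERK feedback and immediate early genes set the clones apart. Of 19 tested genes, 6 were higher in D1E6 only, none in D2A7 only and 1 in both, against 0.958% of all tested genes higher in D1E6 only, with a median of 0.45 in D1E6 and 0.10 in D2A7. *Spry4*, a Sprouty inhibitor of receptor kinase signalling, was at 0.428 and 0.397 FPKM in WT, 0.635 and 0.639 in D2A7 and 4.07 and 4.18 in D1E6 (log2 fold change 0.51 in D2A7 and 3.02 in D1E6). *Etv4*, an ETS factor induced by FGF, was at 0.497 and 0.654 FPKM in WT, 0.684 and 0.818 in D2A7 and 4.29 and 4.82 in D1E6 (0.32 and 2.76). The direct differences between the clones were -2.51 for *Spry4* and -2.44 for *Etv4*, and for both genes every D1E6 library lay far above the other 4. *Dusp6*, the phosphatase that inactivates ERK, was at 5.11 and 4.59 FPKM in WT, 4.15 and 4.46 in D2A7 and 11.3 and 10.8 in D1E6 (-0.19 and 1.14). *Dusp4* (-0.41 and 0.70), *Myc* (-0.29 and 0.61) and *Spry1* (-0.29 and 0.61) made up the 6, the last 4 genes being named after their values were seen. *Spry1* lost its D1E6 call without WT replicate 1 and *Myc* without either D1E6 library or WT replicate 2. *Junb*, an AP-1 factor on chromosome 8, was the shared gene (0.61 and 0.70) and was no longer shared without D2A7 replicate 2 or WT replicate 2. With chromosome medians set to 0, *Junb* was not called (0.24 and 0.33) and 5 of the list were higher in D1E6 only, without *Dusp4*, which also lies on chromosome 8 (-0.78 and 0.34).

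**Figure D3:**
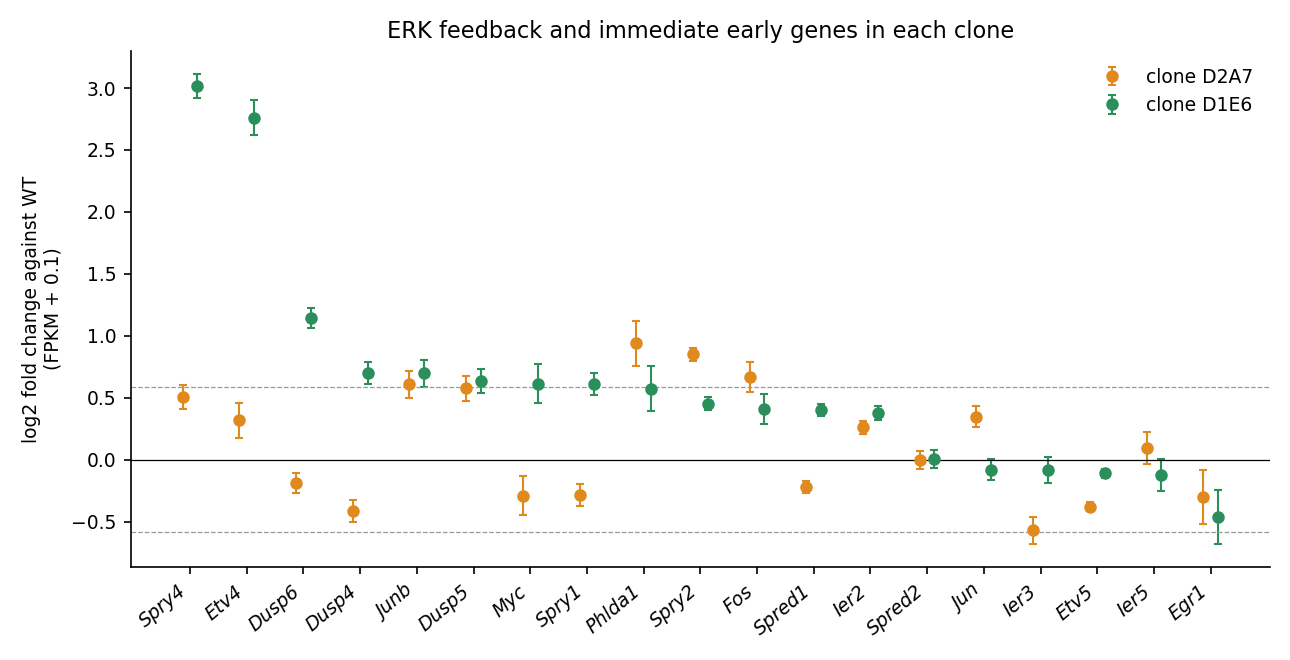
Log2 fold change against WT (points, bars show the SE) of the 19 tested ERK feedback and immediate early genes in D2A7 and in D1E6, ordered by the value in D1E6. *Spry4* and *Etv4* lie at 3.02 and 2.76 in D1E6 and at 0.51 and 0.32 in D2A7, and the dashed lines mark the fold threshold.

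The central pluripotency factors were below the fold threshold in both clones. *Sox2* was at 187 and 181 FPKM in WT, 145 and 148 in D2A7 and 138 and 143 in D1E6 (log2 fold change -0.35 and -0.42, under the fold threshold), and *Pou5f1* (0.03 and -0.15) and *Nanog* (-0.23 and -0.18) were not called. Of 10 core factors, 2 were higher in D1E6 only (0.958% of all tested genes were): *Utf1*, at 27.3 and 26.6 FPKM against 12.2 to 18.2 FPKM in the other 4 libraries (1.03 in D1E6 and 0.39 in D2A7), and *Lin28a*, a repressor of let-7 processing, at 73.1 and 75.1 FPKM against 44.5 and 47.3 in WT and 35.1 and 34.9 in D2A7 (0.66 and -0.41). Without D2A7 replicate 1 the difference of *Utf1* between the clones was -0.55, under the fold threshold, against -0.64. Of 16 naive factors 13 were not called in either clone, close to the 80.1% of all tested genes. The single shared gene was *Tcl1*, a coactivator of AKT, which rose from 23.1 and 24.2 FPKM to 46.2 and 45.9 in D2A7 and 54.8 and 56.6 in D1E6 (0.94 and 1.2). Of the 11 tested primed factors 1 was shared lower, 1 lower in D2A7 only, 2 lower in D1E6 only, 2 undecided and 5 not called, with a median of -0.47 in each clone. Over all tested genes 2.43% were shared lower, 1.12% lower in D2A7 only, 1.39% lower in D1E6 only and 80.1% not called. *Zic5*, the member lower in D2A7 only and named after its values were seen, lost that class without D1E6 replicate 2.

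Of 14 tested genes of Nodal signalling and mesendoderm 9 were not called in either clone, *T* was shared lower, and 1 was lower and 3 higher in D1E6 only, with medians of -0.05 in D2A7 and 0.07 in D1E6. *Otx2*, a factor of primed pluripotency and anterior neural fate named after its values were seen, was at 10.8 and 11.1 FPKM in WT, 11.4 and 10.6 in D2A7 and 2.93 and 2.93 in D1E6 (-0.03 in D2A7 and -1.90 in D1E6). *Gsc*, a Nodal target of the organizer likewise named, was at 3.79 and 4.13 FPKM in WT, 4.17 and 4.09 in D2A7 and 1.34 and 1.64 in D1E6 (-1.39 in D1E6). *Eomes* (0.76) and *Foxh1* (0.80), factors that act with Nodal signals, were higher in D1E6 only, with the class lost for *Eomes* without D1E6 replicate 1 or D2A7 replicate 1.

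The 4 leading genes in each direction in D1E6 only included 2 solute carriers among the lower and, beside *Spry4* and *Etv4*, 2 genes of chromosome 6 among the higher. *Slc38a4*, an imprinted amino acid transporter, was at 10.9 and 11.0 FPKM in WT, 10.9 and 10.6 in D2A7 and 1.35 and 2.08 in D1E6 (-2.67), and *Slc24a5*, a cation exchanger of pigment granules, at 9.33 and 9.86, 10.9 and 10.9, and 1.42 and 1.71 FPKM (-2.58). For both genes D2A7 lay at the WT level and D1E6 far below it. *1700024B05Rik* (-2.54) and *Pdzrn3*, a ubiquitin ligase (-1.99), were also lower in D1E6. *Pdzrn3* was called in both clones without WT replicate 2. *Wnt5b*, a noncanonical WNT ligand gene on chromosome 6, was at 1.32 and 1.24 FPKM in WT, 1.21 and 1.12 in D2A7 and 3.85 and 3.52 in D1E6 (1.42).

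The 4 leading genes higher in D2A7 only were *Ly6a*, *Tat*, *Cd3g* and *Ceacam10*. *Ly6a*, a surface antigen of blood and stromal cells, was at 0.196 and 0.451 FPKM in WT, 4.74 and 5.03 in D2A7 and 0.557 and 0.607 in D1E6 (3.61 in D2A7), and was called in both clones without WT replicate 2. *Tat*, a liver enzyme of tyrosine breakdown, was at 0.201 and 0.208 FPKM in WT, 3.04 and 2.89 in D2A7 and 0.353 and 0.267 in D1E6 (3.31), and *Cd3g*, a chain of the T cell receptor complex, at 0.721 and 0.616, 7.96 and 6.66, and 0.716 and 0.945 FPKM (3.24). *Ceacam10*, an adhesion molecule (2.94), was called in both clones without WT replicate 2. For *Tat* and *Cd3g* the 2 D2A7 libraries stood apart from the other 4. Lower in D2A7 only were *Bex4* on the X chromosome, at 31.7 and 34.7 FPKM against 95.5 and 98.7 in WT and 73.0 and 77.5 in D1E6 (-1.57), *Xk*, a membrane transporter (-1.72), *2610018G03Rik* (-1.62) and *Mir467a-9* (-1.66). *Xk* was called in both clones without WT replicate 1, and *Mir467a-9*, at 6 to 12 fragments in WT, lost its class without D1E6 replicate 1, D2A7 replicate 2 or WT replicate 2.

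Of 54 collagen and laminin genes 25 were tested, and 7 were shared higher (2.30% of all tested genes were), 5 higher in D2A7 only (4.39% of all), 1 shared lower and 1 lower in D2A7 only, with a median of 0.66 in D2A7 and 0.13 in D1E6. *Lamb2*, a laminin chain, rose from 9.50 and 9.03 FPKM to 17.4 and 18.4 in D2A7 and 16.9 and 16.1 in D1E6 (0.92 and 0.79). Without 1 library or another, *Col17a1*, *Col4a1*, *Col5a3*, *Lama1* and *Lamb3* were no longer shared, for example *Lama1* (0.63 and 0.77) without D2A7 replicate 2 (0.58 in D2A7). *Col4a1*, on chromosome 8, was not called in either clone with chromosome medians set to 0 (0.56 and 0.25, against 0.92 and 0.61). The fibroblast markers *Thy1* (1.14 and 0.30) and *Pdgfrb* (1.48 and -0.09) were higher in D2A7 only, at no more than 0.458 FPKM in any library, and their part in these results was not tested. *Thy1* lost that class without any 1 of the 6 libraries. *Pdgfrb*, and *Col6a3* and *Lama4* among the 5 genes higher in D2A7 only, passed the filter through the D2A7 libraries alone. The calls of such genes are a description. *Col11a1*, a fibrillar collagen, was the shared lower gene (-1.06 and -1.01). *Lama5*, named after its values were seen, was at 19.8 and 20.3 FPKM in WT, 38.5 and 43.7 in D2A7 and 26.4 and 24.9 in D1E6 (1.01 in D2A7).

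Of 49 integrin and cadherin genes 27 were tested, with 2 shared in each direction, against 2.43% lower and 2.30% higher of all tested genes. *Cdh1*, E-cadherin, on chromosome 8, was at 98.4 and 99.7 FPKM in WT, 154 and 162 in D2A7 and 156 and 155 in D1E6 (0.65 and 0.62), and *Cdh2*, N-cadherin, at 1.73 and 1.92, 0.808 and 0.697, and 0.832 and 0.815 FPKM (-1.20 and -1.09). With the median of each chromosome set to 0, the values of *Cdh1* were 0.28 and 0.25 and neither clone was called. Of 9 tested trophectoderm genes 4 were higher in D2A7 only (4.39% of all tested genes were). *Krt18*, a keratin of simple epithelia, was at 4.23 and 3.99 FPKM in WT, 11.3 and 11.5 in D2A7 and 5.43 and 5.10 in D1E6 (1.43), and its partner *Krt8* at 11.5 and 11.0, 29.8 and 26.5, and 16.7 and 16.6 FPKM (1.29 in D2A7 and 0.53 in D1E6). *Krt8*, named after its values were seen, was shared without WT replicate 1, *Krt7* lost the class without either D2A7 library, and 1 of the 4 genes kept it without each of the 6 libraries in turn. *Cdx1*, a homeobox factor of the posterior embryo chosen in the same way, was at 1.84 and 1.64 FPKM in WT, 6.67 and 5.86 in D2A7 and 1.79 and 1.81 in D1E6 (1.77 in D2A7). Among the Hox genes, 14 of 39 were tested and 3 were higher in D2A7 only, led by *Hoxb13* (1.70), against 4.39% of all tested genes. Summed FPKM of 6 trophectoderm markers were 2.75 to 2.86 in WT, 3.74 to 3.93 in D2A7 and 4.0 to 4.14 in D1E6, and those of 6 primitive endoderm markers 1.06 to 1.10, 1.45 to 1.55 and 0.687 to 0.731. Single genes weighed heavily in the trophectoderm sums. *Eomes* was at 1.77 and 1.90 FPKM in WT, 1.98 and 2.26 in D2A7 and 3.24 and 3.25 in D1E6. *Krt7* was at 0.848 and 0.696 FPKM in WT, 1.47 and 1.37 in D2A7 and 0.694 and 0.589 in D1E6. The part of these markers in the results was not tested, and a few cells with high levels cannot be told apart from a low level in many cells.

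Imprinted genes, which are read from the copy of 1 parent, were among the deepest shared losses. At the Dlk1-Dio3 locus, *Rian*, *Meg3* and *Mirg* were shared lower. *Rian*, a long noncoding RNA of the maternal copy, fell from 1.54 and 1.53 FPKM to 0.108 and 0.0550 in D2A7 and 0.0303 and 0.0548 in D1E6 (-3.21 and -3.55). *Meg3* fell from 0.213 and 0.242 FPKM (120 and 166 fragments) to at most 0.00979 FPKM (4 to 11 fragments) in the KO libraries (-1.60 and -1.67), and *Mirg* fell by 1.87 and 2.18. *Meg3* and *Mirg* passed the filter through the WT libraries alone, so their calls are a description, and neither was tested without a WT library. *Dio3*, a paternally read deiodinase of thyroid hormone, rose from 1.12 and 1.08 FPKM to 6.33 and 7.17 in D2A7 and was at 1.57 and 1.96 in D1E6 (2.49 and 0.60, with the D1E6 call lost without D1E6 replicate 2 at 0.45 or WT replicate 2 at 0.54).

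Of the imprinted genes at other loci, 28 of 33 were tested, and 5 were shared lower and 1 shared higher (median -0.17 in D2A7 and -0.29 in D1E6). Over all tested genes 2.43% were shared lower and 2.30% shared higher. *Nnat*, a small membrane protein of neurons, fell from 1.51 and 1.63 FPKM to 0.0264 and 0.0822 in D2A7 and 0.249 and 0.123 in D1E6 (-3.48 and -2.61). *H19*, a noncoding RNA, fell from 0.678 and 0.523 FPKM to 0.0204 and 0.0476 in D2A7 and 0.131 and 0.101 in D1E6 (-2.40 and -1.71). *Ndn*, *Sfmbt2* and *Zrsr1* fell by 0.78, 1.05 and 0.61 in D2A7 and by 0.92, 0.78 and 0.70 in D1E6, and *Phlda2*, a growth suppressor of the placenta, rose by 1.35 and 0.68. *Mest*, named after its values were seen, was lower in D2A7 only, at 8.19 and 8.15 FPKM against 21.7 and 23.7 in WT and 18 and 19 in D1E6 (-1.48 and -0.33), and was called in both clones with chromosome medians set to 0 (-1.40 and -0.75). *Grb10*, an adaptor that restrains insulin signalling chosen in the same way, was lower in D1E6 only (-0.54 in D2A7 and -1.70 in D1E6).

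Of 27 tested germline genes 6 fell in both clones (2.43% of all tested genes did), none rose in both, 2 were lower and 3 higher in D2A7 only, 1 was higher in D1E6 only and 2 were called in opposite directions (median -0.22 in D2A7 and -0.42 in D1E6). *Tex19.1*, which limits retrotransposons in germ cells, fell from 43.3 and 46.2 FPKM to 17.5 and 16.9 in D2A7 and 18.4 and 18.2 in D1E6 (-1.40 and -1.32). *Rhox2a*, a homeobox gene of the X-linked Rhox cluster, fell from 1.48 and 1.40 FPKM to between 0.0951 and 0.244 FPKM (-2.59 and -2.64), and *Xlr3a*, an X-linked gene of lymphocytes and meiosis, from 3.28 and 3.37 FPKM to 0.939 and 0.767 in D2A7 and 0.481 and 0.575 in D1E6 (-1.87 and -2.48). Of 12 tested genes named Rhox, 8 were shared lower (chrX:34753799-35483143), and of 9 tested genes named Xlr, 4 (chrX:70319684-70448269). Members of these families are close copies of each other, so reads may have been split or shared between them and single members are uncertain. The 3 genes of the Hist3 cluster on chromosome 11 were also shared lower, *Hist3h2ba*, *Hist3h2bb-ps* (-1.65 and -1.51) and *Hist3h2a* (-1.07 and -1.28), with the D2A7 call of *Hist3h2a* lost without D2A7 replicate 2 (-0.85) or WT replicate 1 (-1.0). *Hist1h1t*, the linker histone of spermatocytes, fell by 1.87 and 2.67.

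Position on 3 chromosomes went with the calls. Of 714 tested genes on the X chromosome 68 were shared lower (9.52%) and 4 shared higher, and 12 of the 68 are named Rhox or Xlr. On chromosome 8, 63 of 881 tested genes were shared higher (7.15%) and 4 lower, and the median over the whole chromosome was 0.37 in D2A7 and 0.36 in D1E6. On chromosome 6, 66 of 793 tested genes were higher in D1E6 only (8.32%), with a median of 0.42 in D1E6 and -0.09 in D2A7. With each chromosome's median set to 0, 12 genes of chromosome 8 were shared higher and 18 shared lower, 3 of chromosome 6 were higher in D1E6 only, and 55 of the X chromosome were shared lower, while 380 of the 424 shared lower and 322 of the 401 shared higher genes over the genome were kept. Copy number was not measured in these files. Of the called genes named above, *Nod2*, *Cdh1*, *Hhip*, *Tubb3*, *Junb*, *Dusp4*, *Col4a1* and *Tat* lie on chromosome 8. Within 250000 bases of the guide's cut, 21 genes were tested, of which *Dnttip1* was the single shared lower gene and 1 was shared higher.

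**Figure D4:**
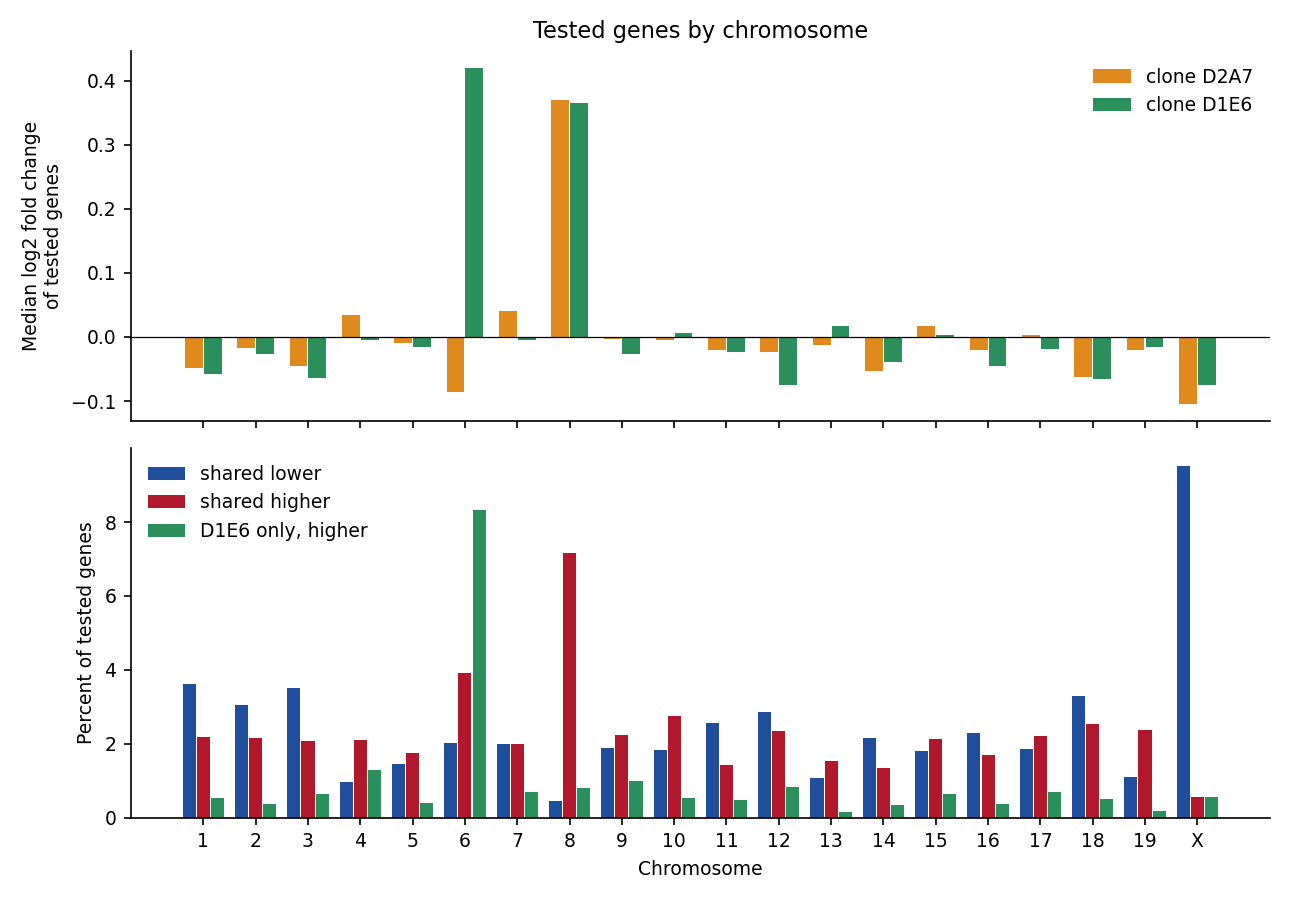
Upper panel, median log2 fold change against WT of the tested genes of each chromosome in D2A7 and in D1E6. Lower panel, percent of the tested genes of each chromosome that were shared lower, shared higher or higher in D1E6 only, with the X chromosome at 9.52%, chromosome 8 at 7.15% and chromosome 6 at 8.32%.

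None of 81 nuclear-encoded respiratory chain genes was shared and 80 were not called, and of 84 cytosolic ribosomal protein genes 81 were not called. *Rpl39l*, a ribosomal paralogue of the testis whose reads may be shared with close copies, was higher in D2A7 and lower in D1E6 (1.34 and -0.60), with the D1E6 call lost without D1E6 replicate 1 (-0.53) or WT replicate 1 (-0.54). The 25 tested mitochondrially encoded genes had medians of 0.44 and 0.33, with none shared. Of 46 cell cycle genes 38 were not called, close to the 80.1% of all tested genes, among them *Ccna2* (-0.26 and 0.07), *Cdkn1a* (0.07 and -0.06) and *Cdkn1b* (-0.21 and 0.22), whereas *Ccnd2*, cyclin D2, fell by 1.56 and 1.54. Of 344 expressed Zfp genes 311 were not called, and the 4 that were shared lower each lost that class without 1 or more of the libraries.

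In the metabolic and stress lists the shared calls are read against the 4.73% of all tested genes that were shared. Of 34 glycolysis and hypoxia genes the shared ones were *Slc16a3*, a lactate exporter (-1.75 and -1.06), and *P4ha1*, a collagen prolyl hydroxylase (-0.96 and -0.93), both lower, with a list median of -0.29 in D2A7 and -0.11 in D1E6. Of 32 genes of cholesterol and fatty acid synthesis 27 were not called in either clone. Of 21 tested p53 targets, *Perp*, a desmosome protein, fell (-0.70 and -1.08) and *Gdf15*, a stress cytokine, rose (1.18 and 0.70), the latter in D2A7 only without D1E6 replicate 1 and, as it lies on chromosome 8, not called in D1E6 with chromosome medians set to 0 (0.34). Among 29 ATF4 response genes and 20 tested interferon response genes none was shared. *Cth*, an enzyme of cysteine synthesis in the ATF4 list, was higher in D2A7 only (0.93 and 0.00).

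**Figure D5:**
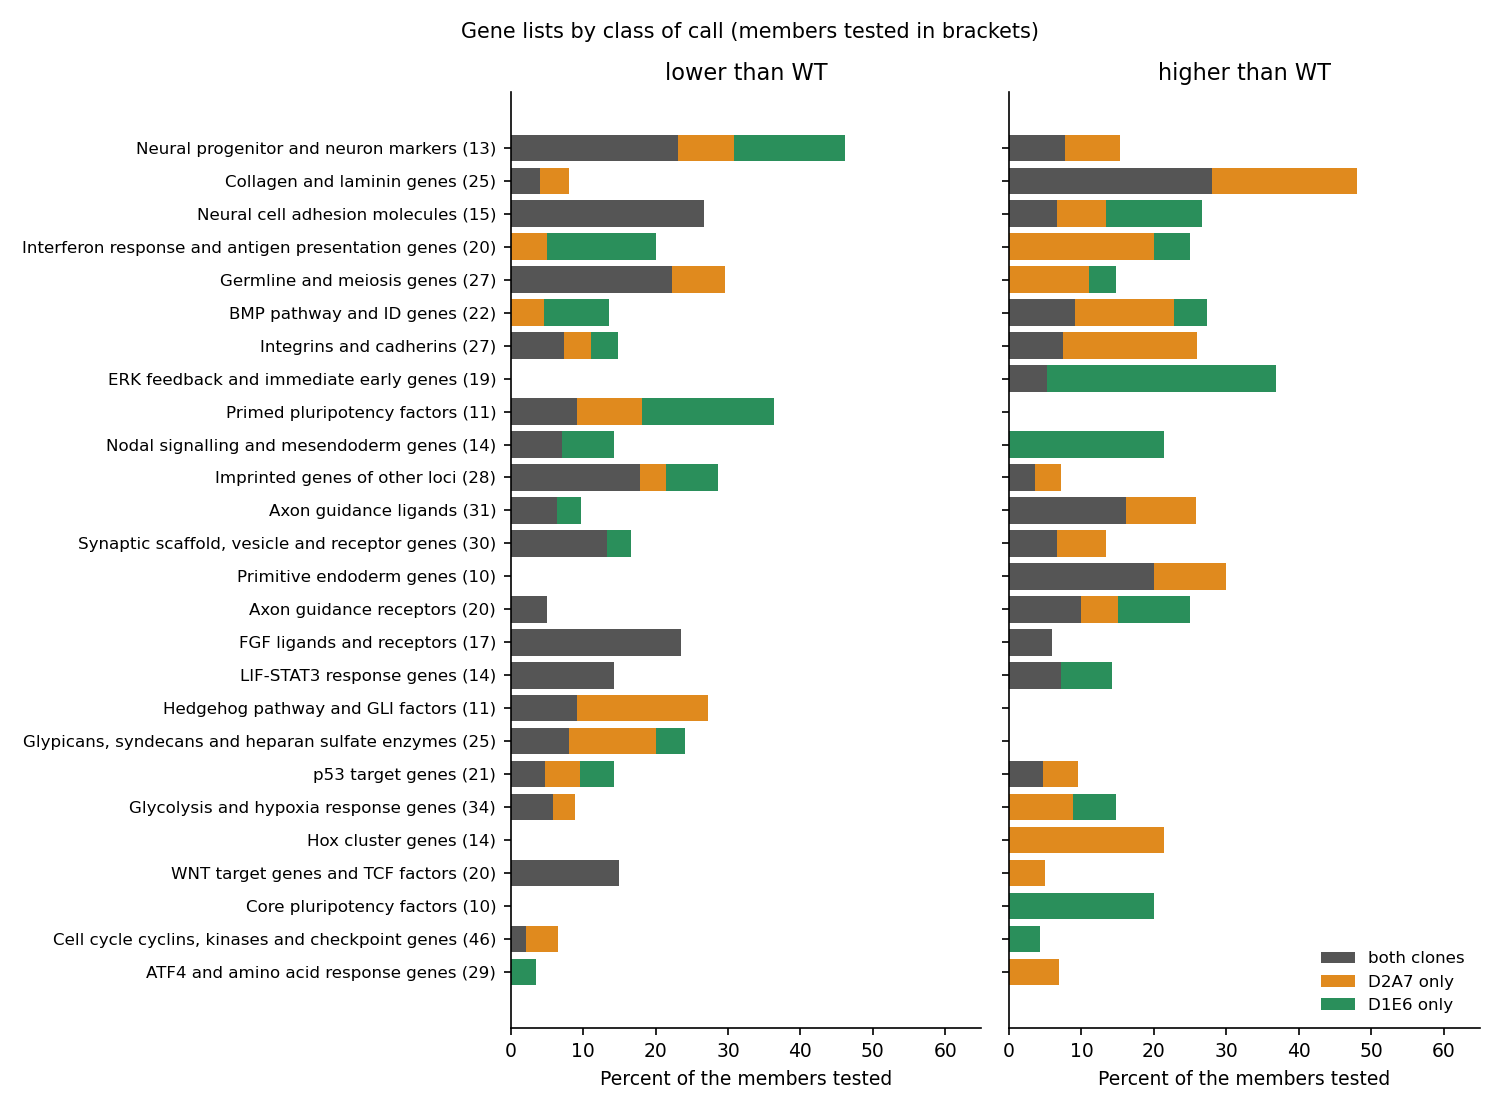
Percent of the tested members of a list that were lower (left) or higher (right) than WT in both clones, in D2A7 only or in D1E6 only, for the 26 lists of at least 10 tested genes with the largest share of such calls. Germline genes have 6 of 27 members shared lower, collagen and laminin genes 7 of 25 shared higher, and ERK feedback genes 6 of 19 higher in D1E6 only.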

How the data were processed

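Total RNA of 10 mESC libraries was sequenced from both ends with a stranded kit on HiSeq and NovaSeq instruments. The sources used here do not assign libraries to instruments. The authors aligned reads to the mouse genome (NCBIM37, mm9), counted them per gene with HTSeq and deposited 1 table of FPKM values for all libraries. The submitters' processing notes also name edgeR 3.16.5, limma and R 3.3.1. The methods name GENCODE vM20, but 97.2% of the 34591 gene identifiers matched GENCODE vM1, which gave positions and types. The 985 unmatched genes had no position.

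Each of the 6 libraries was scaled by its median ratio to the geometric means of 11395 genes having 1 FPKM or more in all of them (factors 0.967 to 1.02). Genes with at least 0.1 FPKM in 2 or more libraries entered limma 3.58.1 as log2(FPKM + 0.1) (R 4.3.3, moderated, variance trend, two-sided, Benjamini-Hochberg over all genes tested). The clone contrasts came from 1 fit with a mean per line and shared the WT libraries. All adjusted p-values are from limma. Fragments behind each value were recovered from FPKM and exon length, 98.1% to 98.4% of values under 100 fragments being whole within 0.02. They served for depth and for an alternative with voom after scaling by trimmed means of M values. The replicate numbers were not found to pair the libraries. Fits were tested on simulated data. Other steps used Python 3.11.15 and matplotlib 3.10.9.

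Named genes are the MiDAC subunits and genes the study names for RNA in mESCs, the 10 leading shared genes in each direction, the 4 leading genes of each clone and direction (both averaging 1 FPKM or more), and up to 4 shared members of each of 47 gene lists, or up to 2 members called in 1 clone where none was shared. The comparisons and lists were chosen with earlier results of these data known. Alternatives were another pseudocount, filter or scaling, no variance trend, all 10 libraries, a correlation within clones, the mean of the clone means, a replicate block, voom on fragments, centred chromosomes and each library left out. *Map2* was not analysed here, and some genes named by the rule are not reported here.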

Additional observations from a re-analysis of the deposited data

Results flagged for a closer look

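The clones differed by the direct limma test (D2A7 minus D1E6, log2) in many of the genes named by the rule, some with a shared call and some without. Among the genes called lower in both clones, D2A7 was the lower clone for *Peg10* (-2.87), *Nrp2* (-1.17), *Sgce* (-0.97), *Nxf3* (-0.78), *Nrcam* (-0.74), *Slc16a3* (-0.69) and the zinc finger gene *Zfp521* (-1.33). The difference of *Sgce* was not called with chromosome medians set to 0 (-0.47). D1E6 was the lower clone for *C330008G21Rik* (1.75), *Alcam* (1.30), *Xlr3b* (1.13), *Dner* (0.84), *Hist1h1t* (0.80), *Dnttip1* (0.79) and *Xlr3a* (0.61). Among the genes called higher in both clones, D2A7 was the higher clone for *Pramel6* (3.29), *Dio3* (1.89), *Itga3* (1.59), *Grin1* (1.00), *Col17a1* (0.94) and *Gsn* (0.90), and D1E6 for *Dnmt3l* (-0.89) and *Trerf1* (-0.72). *Rpl39l* (1.94) was called in opposite directions. Without 1 or more of the libraries, the differences of *Nrcam*, *Dner*, *Hist1h1t*, *Xlr3a* and *Trerf1* were no longer called.

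Of the genes called in D2A7 only, higher values in that clone gave differences for *Cd3g* (3.01), *Tat* (2.92), *Ly6a* (2.88), *Ceacam10* (2.47), *Hoxb13* (1.96), *Gbp2* (1.77), *Mfng* (1.70), *Oasl2* (1.58), *Pdgfrb* (1.57), *Tdpoz5* (1.41), *Krt18* (1.11), *Atf3* (1.06), *Cox7a1* (0.94), *Cth* (0.92), *Thy1* (0.85), *Hoxb9* (0.85) and *Ntf5* (0.59). The difference of *Thy1* was no longer called without any 1 of the 6 libraries. Those of *Oasl2*, *Tdpoz5*, *Atf3*, *Hoxb9* and *Ntf5* were lost without 1 or more of the libraries. *Pdgfrb* and *Tdpoz5* passed the filter through the D2A7 libraries alone. Lower values in D2A7 gave differences for *Mir467a-9* (-1.57), *2610018G03Rik* (-1.39), *Xk* (-1.19) and *Bex4* (-1.17). Of the genes called in D1E6 only, lower values there gave differences for *Slc24a5* (2.74), *1700024B05Rik* (2.66), *Slc38a4* (2.62) and *Pdzrn3* (1.5), and higher values for *Spry4* (-2.51), *Etv4* (-2.44), *Wnt5b* (-1.57), *Epha1* (-1.44), *Lin28a* (-1.07) and *Utf1* (-0.64).

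In 4 genes 1 of the 4 KO libraries stood apart from the other 3, by Dixon's criterion on the gap to the nearest library as a share of the range. The gap was 0.853 of the range for *C130039O16Rik*, 0.969 for *AY036118*, 0.832 for *Fgfr2* and 0.832 for *Usp9y*. These are 2.65% of 151 named genes. The criterion gives about 1 in 20 groups by chance only where the values of a group are independent. The KO libraries are duplicates within clones, so that rate does not apply to them and the 2.65% cannot be judged against it.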

How the results depend on the processing

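Counts are given as lower and higher genes. With all 10 libraries in 1 fit, *Dnttip1* KO had 921 and 1240 genes, with a correlation within clones 256 and 281, and with the mean of the clone means 838 and 1116. With a mean of at least 1 FPKM, there were 288 and 372 in *Dnttip1* KO, 523 and 1010 in D2A7, 514 lower in D1E6, 847 higher in D2A7 than in D1E6, 220 shared lower, 398 higher in D2A7 only and 137 lower in D1E6 only. With a pseudocount of 1, there were 293 and 250 in *Dnttip1* KO, 432 and 860 in D2A7, 413 and 348 in D1E6, 308 and 706 between the clones, 198 and 146 shared, 70 and 393 in D2A7 only and 89 and 80 in D1E6 only, and *Slit3* was no longer called in D2A7 (-0.55). With quantile normalization, 956 genes were lower in D2A7 than in D1E6 and 323 were lower in D2A7 only, and the share of higher genes in D2A7 went from 66.2% to 53% (1177 lower and 1329 higher). Voom on the recovered fragments gave 609 and 408 genes in *Dnttip1* KO and 520 and 423 shared. The cause was not tested for the scalings; the filter tests fewer genes, and the larger pseudocount shrinks low genes.

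Leaving out 1 library gave from 254 to 504 lower and 348 to 574 higher genes in *Dnttip1* KO. The lowest, 254 and 348, came without WT replicate 1, and 266 were lower without WT replicate 2. The ranges were 752 to 841 lower and 1232 to 1737 higher in D2A7, 762 to 867 and 615 to 917 in D1E6, 329 to 371 and 301 to 519 shared, 159 to 186 and 518 to 729 in D2A7 only, and 186 to 228 and 132 to 166 in D1E6 only. Without WT replicate 2 the share of higher genes among the shared ones was 59.6%, against 48.6%. The pooled *Dnttip1* call was lost without either WT library, its difference lying between -1.40 and -1.13 over the omissions. Pooled values that changed sign, none of them called, were those of *Cdkn1a*, -0.014 with quantile normalization and from -0.032 to 0.036 with 1 library left out, and of *Cdkn1b*, -0.16 with centred chromosomes and from -0.066 to 0.084 with 1 library left out. Of 246 calls of named genes in a clone, 149 held in every setting, 63 were lost without at least 1 library and 77 at a pseudocount of 1.

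Same-numbered libraries did not deviate together (correlation of deviations over 12243 genes -0.084 for WT and D2A7, -0.033 for WT and D1E6, 0.102 for D2A7 and D1E6), so the numbers do not pair them. A fit with the replicate number as a block gave 459 and 440 genes in *Dnttip1* KO, 847 and 1676 in D2A7, 908 and 774 in D1E6 and 411 and 386 shared, with 392 of the 424 and 358 of the 401 shared genes kept. Values from a few fragments, as for *AL626775.1*, are imprecise, and the WT libraries, the shallowest, enter every comparison with WT.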

Other observations

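Genes outside the shared set gave further differences between the clones, named here after their values were seen. Interferon response and antigen presentation genes had 4 members higher and 1 lower in D2A7 only and 1 higher and 3 lower in D1E6 only out of 20 tested, against 4.39%, 1.12%, 0.958% and 1.39% of all tested genes. *B2m*, the light chain of class I antigen-presenting molecules, was at 23.8 and 27.2 FPKM in WT, 42.6 and 42.0 in D2A7 and 21.6 and 22.1 in D1E6 (log2 fold change 0.71 in D2A7), and *Oas1a*, a sensor of double-stranded RNA, at 3.22 and 3.13, 8.58 and 8.61, and 2.70 and 3.07 FPKM (1.39). *Bst2*, which tethers budding viruses, was higher in D1E6 only, at 153 and 141 FPKM against 58.7 and 56.1 in WT (1.32). The 3 lower genes of D1E6, the class I antigen genes *H2-D1* (-1.11) and *H2-K1* (-1.03) and *Oasl1* (-0.73), each lost that class without 1 or more of the libraries. Of the glycolysis genes, *Hk1* was higher in D2A7 only (0.89 and 0.03) and *Hk2* in D1E6 only (0.08 and 0.72), both being hexokinases, with *Hk2*, on chromosome 6, not called with chromosome medians set to 0 (0.30), and *Vegfa*, the vascular growth factor, was higher in D2A7 only (1.24 and -0.25). *Smo*, the transducer of Hedgehog signals, and *Gli1*, its target, were lower in D2A7 only (-1.34 and -0.89), *Smo* being called in both clones with chromosome medians set to 0 (-1.26 and -0.71). *Sdc3*, a syndecan, was called in opposite directions (0.99 and -0.66), whereas the proteoglycan gene *Gpc3* and the sulfatase gene *Sulf1* were lower in D2A7 only (-0.95 and -1.16).

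Of 7 tested Y-linked genes 2 were higher in D2A7 only, 2 lower in D1E6 only, 1 shared lower and 2 not called. Over all tested genes these shares were 4.39%, 1.39%, 2.43% and 80.1%. *Eif2s3y*, a translation initiation factor, and *Zfy1*, a zinc finger factor, were higher in D2A7 only (1.07 and 1.13), and *Ddx3y*, an RNA helicase, was lower in D1E6 only (-0.60), a call lost without WT replicate 2. *Kdm5d*, also lower in D1E6 only, lost that class without D1E6 replicate 2, either D2A7 library or WT replicate 1. *Usp9y* was at 0.139 and 0.173 FPKM in WT and 0.0337 to 0.0464 FPKM in the 4 KO libraries, and lost its shared call without any 1 library. *Usp9y* passed the filter through the WT libraries alone, so its call is a description. Of 14 genes of the 2-cell-like state 1 was tested, of 25 clustered protocadherins 2, and of 9 neurotrophin and receptor genes 5, with none shared. Of 85 tested small nucleolar and Cajal body RNAs 75 were not called, and *Snora74a* was the single shared lower one (-1.39 and -1.10) that kept its class without each of the 6 libraries in turn. These short RNAs have close copies, so their values are uncertain.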
